A study of Homo sapiens with 43 samples.

Results

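The mitogen-response genes described here are the 4 Fos-family genes FOS, FOSB, FOSL1 and FOSL2, the 3 Jun-family genes JUN, JUNB and JUND, and the genes EGR1, IER3 and MYC. They were chosen by symbol, and all 10 were found among 18085 genes in the H2087 tables and 25369 genes in the HCC1954 tables. H2087 is an established lung cancer line and HCC1954 an established breast cancer line in which the ERBB2 gene is amplified. Each line was profiled as latency-competent (LCC) derivatives, isolated from mouse organs that gave no bioluminescence signal, and as the parental line. Cells were kept subconfluent for 48 hours in mitogen-low medium (MLM) or mitogen-rich medium (MRM), and total RNA was sequenced. In H2087, each medium had 6 LCC libraries, since LCC1 to LCC6 gave 1 library apiece, and 2 parental libraries. In HCC1954, each medium had 4 LCC libraries, 2 from LCC2 and 2 from LCC1, and 3 parental libraries. The labels name neither the mitogens nor a vehicle. They do not say that libraries of one cell population came from separate cultures, so p-values measure only the spread between these libraries, which may be technical. The LCC cells had been in a mouse and the parental cells are not labelled as having been in one, so that passage and the selection of a derivative cannot be told apart.

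Growth factors and serum act through receptors, RAS and the ERK kinases on transcription factors already present at promoters, such as the serum response factor with its ETS partners and the CRE-binding proteins. The first genes switched on are called immediate-early genes, and most of the genes described here belong to them. Fos and Jun proteins pair through leucine zippers into AP-1, a dimer that binds TGANTCA. FOS and FOSB are known for a brief burst after stimulation, whereas FOSL1 (FRA-1) and FOSL2 (FRA-2) lack the strong activation domain of FOS and persist for longer. JUN is the main activating partner, JUNB can oppose it, and JUND is present in resting cells. EGR1 is a zinc-finger factor, IER3 an ERK-regulated protein that affects cell survival, and MYC a driver of growth and ribosome production. Deposited values are normalised read counts, which depend on gene length, so levels are compared between libraries and not between genes.

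The H2087 libraries held 44649263 to 55653300 reads in MLM and 12131848 to 20847987 in MRM, and the HCC1954 libraries held 24852118 to 28119596 in MLM and 28799407 to 44705518 in MRM. In H2087 every MLM library was deeper than every MRM library and in HCC1954 every one was shallower, so that medium and depth cannot be told apart. Each member had at least 472 reads in every H2087 library except FOS, which had 49 to 561, and FOSB, which had 8 to 84. The fewest reads of any member in HCC1954 were the 55 of FOSB. Several libraries stood apart. The chi-square per degree of freedom between parental library 3 of HCC1954 in MLM and the other 2 parental libraries was 62.9 and 63.1, against 7.57 between those 2. LCC1 library 2 of HCC1954 in MRM differed from LCC1 library 1 by 115, as far as library 1 lay from the LCC2 libraries (113 and 128), whereas the 2 LCC1 libraries in MLM differed by 3.64. The H2087 library labelled LCC6 in MRM correlated more with LCC5 (r = 0.487) than with LCC6 (r = 0.411) in MLM, in deviations from the group mean over all genes tested. Without LCC6 of MRM, all H2087 calls described here held except that of IER3 between media in LCC (limma adjusted p at most 0.0439 for those that held). Without parental library 3 of MLM and LCC1 library 2 of MRM, all HCC1954 calls held except that of JUNB in MRM (limma adjusted p at most 0.0443 for those that held). Further values without these libraries are given with the genes they touch. The summed counts of 10 fibroblast marker genes were 1657 to 8008 in HCC1954 LCC and 870.3 to 1091 in parental cells in MLM, and 2149 to 2859 against 848.6 to 914.7 in MRM. Of the 10, LUM was at 0 in every library of LCC in MLM and LUM and THY1 in LCC in MRM, whereas COL1A2, DCN, LUM and THY1 were at 0 in parental cells in MLM and DCN, PDGFRB and THY1 in MRM. Of 3 fibroblast markers tested, 2 were called higher in HCC1954 LCC in each medium, against 19.7% of all genes in MLM and 20.4% in MRM. In H2087 the sums of the 10 were 327 to 724 in LCC and 375 to 433 in parental cells in MLM. In MRM the H2087 sums were lower in LCC, at 516 to 997 against 1101 to 1151. The part of these markers in the results was not tested.

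RefSeq promoters (GRCh38.p14) were found for 7 of the 10 genes, and FOSL1, IER3 and MYC were not in the table used. The 250 bases before the start of each gene were searched on both strands for short motifs. These were AP-1 (TGANTCA), the core of the CRE (ACGTCA) and the CArG box of the serum response element (CCWWWWWWGG, W being A or T). The ETS core (CCGGAA), the EGR site (GTGGGCG) and the E-box (CACGTG) were searched too. Shown are FOS and EGR1, the textbook immediate-early promoters, beside FOSL2, JUND and JUN. FOS and EGR1 transcripts were not called between media in either line in the fit over all groups. That fit averages the 2 HCC1954 derivatives, and in LCC2 both genes were lower in both MLM libraries than in either MRM library. FOSL2 and JUND were higher in MLM in HCC1954. Capitals mark matches to any of these motifs, and overlapping matches run together.
FOS: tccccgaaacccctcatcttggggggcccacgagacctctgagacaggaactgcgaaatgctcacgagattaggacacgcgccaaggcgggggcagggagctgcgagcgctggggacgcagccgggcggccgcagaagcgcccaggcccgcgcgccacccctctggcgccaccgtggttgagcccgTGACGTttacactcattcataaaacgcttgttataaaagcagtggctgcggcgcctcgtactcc
EGR1: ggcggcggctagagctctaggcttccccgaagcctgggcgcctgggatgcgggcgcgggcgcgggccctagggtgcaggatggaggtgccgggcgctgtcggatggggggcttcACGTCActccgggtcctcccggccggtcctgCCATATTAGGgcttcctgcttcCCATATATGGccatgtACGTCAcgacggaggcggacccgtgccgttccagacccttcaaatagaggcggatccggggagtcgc
FOSL2: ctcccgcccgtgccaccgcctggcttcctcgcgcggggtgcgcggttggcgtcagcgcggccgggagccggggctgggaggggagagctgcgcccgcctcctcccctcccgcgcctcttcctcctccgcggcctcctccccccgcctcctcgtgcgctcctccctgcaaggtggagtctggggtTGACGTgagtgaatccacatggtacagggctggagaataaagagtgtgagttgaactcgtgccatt
JUND: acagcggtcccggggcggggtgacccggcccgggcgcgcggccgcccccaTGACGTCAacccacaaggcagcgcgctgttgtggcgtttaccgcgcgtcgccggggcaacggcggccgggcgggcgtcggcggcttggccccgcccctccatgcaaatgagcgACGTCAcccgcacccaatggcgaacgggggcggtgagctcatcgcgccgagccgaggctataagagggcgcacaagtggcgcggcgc
JUN: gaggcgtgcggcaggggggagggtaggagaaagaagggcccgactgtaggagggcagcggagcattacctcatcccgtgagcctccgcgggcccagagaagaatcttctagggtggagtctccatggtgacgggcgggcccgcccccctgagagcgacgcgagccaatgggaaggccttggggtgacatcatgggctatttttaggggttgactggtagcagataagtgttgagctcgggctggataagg
The stretches lie at chr14:75278578-75278827 (plus strand), chr5:138465229-138465478 (plus), chr2:28392608-28392857 (plus), chr19:18281623-18281872 (minus) and chr1:58784048-58784297 (minus). A CRE core was present in 5 of the 7 promoters (FOS, FOSB, FOSL2, JUND and EGR1), against 7.1% of 35116 promoters of the same length. Counting the base just before the start as -1, it ended at -59 in FOS, -61 in FOSL2 and -55 in FOSB. JUND held 3 matches, of which 2 overlapped as the palindrome TGACGTCA, and EGR1 held 2. Within these 250 bases EGR1 alone of the 7 held a CArG box, in 2 copies, a motif found in 1.16% of all promoters. Bases further upstream were not searched and only exact matches were counted. A window without a match therefore does not show that the gene, FOS included, lacks the site. FOSB alone held the ETS core, found in 14.5% of promoters. No member window matched the AP-1, EGR or E-box letters, which 6.57%, 8.53% and 6.34% of promoters hold. The member windows were 62 to 74.8% G and C, against a median of 58%. A match is a string of letters and says nothing of what was bound in these cells.

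In H2087, members were called between LCC and parental cells in MRM and not in MLM. In MRM FOSL1, FOSL2, JUN and JUND were higher and IER3 lower in LCC than in parental cells, which is 5 of 10 members called at a limma adjusted p under 0.05, against 22.2% of 12535 genes tested (12.1% higher and 10.1% lower). In MLM none of the 10 was called, against 13.5% of genes (4.99% higher and 8.52% lower). limma gave an unadjusted p under 0.05 for 3 of them (JUNB, JUND and MYC) in MLM, against 3458 of the 12535 genes, a share close to that of the members, and edgeR and DESeq2 also called none. The median log2 difference of the members was 0.37 in MRM and 0.06 in MLM, against -0.0016 and 0.0062 for all genes tested.

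In the Fos family, FOSL1 in MRM was 11972, 15679 and 18162 in LCC (lowest, median and highest of 6 libraries), against 6039.6 and 6877 in parental cells. All 6 derivatives lay above both parental libraries, and the log2 difference was 1.25 ± 0.16 (SE; limma adjusted p = 0.000117). In MLM the groups overlapped, at 22090.0, 25107 and 32846 in LCC against 23859 and 24530.0 in parental cells (0.10 ± 0.16, limma adjusted p = 0.73). FOSL2 in MRM was 4957, 5767 and 6837 in LCC against 3844 and 3524 in parental cells, again without overlap (0.67 ± 0.13, limma adjusted p = 0.00226). In MLM it was 4749.9, 5088 and 6413 in LCC against 4558 and 4595, also without overlap, but at 0.22 ± 0.13 it did not pass (limma adjusted p = 0.295). FOS and FOSB passed in neither medium. FOS was 93.6, 138 and 287 in LCC against 155 and 131 in parental cells in MLM, and 83.5, 152 and 244 against 152 and 161 in MRM. One derivative, LCC2, was highest for FOS in both media. FOSB was 20.8, 29.0 and 43 in LCC against 39.3 and 26.7 in MLM, and 13.6, 33.3 and 58.1 against 34.8 and 28.4 in MRM. The SE of the FOSB difference was 0.46 on the log2 scale in each medium.

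In the Jun family, JUN in MRM was 3732, 7493 and 9697 in LCC, against 2519 and 2639.8 in parental cells (1.40 ± 0.30, limma adjusted p = 0.00448). The groups did not overlap, though LCC4 lay nearest to the parental cells, and without parental library 1 the call was lost (limma adjusted p = 0.0675). In MLM JUN was 3919, 6323 and 8129 in LCC against 6437 and 6365, with the parental libraries inside the LCC range (-0.08 ± 0.30, limma adjusted p = 0.9). JUND in MRM was 1211, 1644 and 2108 in LCC against 1066 and 1116 (0.61 ± 0.18, limma adjusted p = 0.0253). It was above the parental libraries in all 6 derivatives in MLM too, at 1183, 1436 and 1742 against 983 and 1079, where it did not pass (0.47 ± 0.18, limma adjusted p = 0.103). The MRM call for JUND was lost without parental library 1 or 2 (limma adjusted p = 0.193 and 0.124), when scaled to library totals (0.0511) and when only the MRM libraries were fitted (0.0672). JUNB was 1566, 1962 and 2436 in LCC against 1401 and 1531 in MRM (0.43 ± 0.15, limma adjusted p = 0.0574). In MLM it was 1185, 1384 and 1645 in LCC against 1748 and 1876 (-0.39 ± 0.15, limma adjusted p = 0.112). JUNB thus lay above the parental libraries in MRM and below them in MLM in all 6 derivatives, with neither difference past the threshold. The MRM difference passed without LCC1 (limma adjusted p = 0.0236) and with DESeq2 (adjusted p = 0.0313). Groups did not overlap for 19.5% (above) and 18.4% (below) of all genes in MRM, and for 16.3% and 19.8% in MLM.

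EGR1 varied widely among the H2087 derivatives. In MLM it was 1309.7, 2095 and 2996 in LCC against 1293 and 1250.4 in parental cells (0.67 ± 0.44, limma adjusted p = 0.356), and in MRM 992, 1510 and 3599 against 1545 and 1458 (0.30 ± 0.44, limma adjusted p = 0.66). All 6 derivatives lay above the parental libraries in MLM, and the libraries labelled LCC5 and LCC6 were the highest in both media, at 2901 and 2996 in MLM and 3599 and 3505 in MRM. The LCC6 library of MRM is the one in doubt, and without it the MRM difference was 0.11 (limma adjusted p = 0.867). IER3 was lower in LCC in MRM, at 2102, 3445 and 3980.4 in LCC against 6014 and 5469 in parental cells (-0.85 ± 0.21, limma adjusted p = 0.00948). No derivative reached the parental level. The IER3 call was lost without parental library 1 or 2 (limma adjusted p = 0.123 and 0.0613). In MLM IER3 was 1758, 2476 and 2821 in LCC against 1790.2 and 1787, with LCC6 just below the parental libraries and the other derivatives above (0.43 ± 0.21, limma adjusted p = 0.195). MYC lay below the parental libraries in every derivative in both media. It was 11384, 11827 and 14411 in LCC against 16669 and 17476 in MLM (-0.48 ± 0.19, limma adjusted p = 0.107), and 12879, 19148 and 24021 against 26636 and 26651 in MRM (-0.54 ± 0.19, limma adjusted p = 0.0548). Neither passed in the fit over both media. The MLM difference passed when only the MLM libraries were fitted (limma adjusted p = 0.0137). The MRM difference passed without LCC1 (limma adjusted p = 0.0255), without LCC6 (0.0299), when scaled to library totals (0.0276) and with DESeq2 (0.0406).

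**Figure D1:**
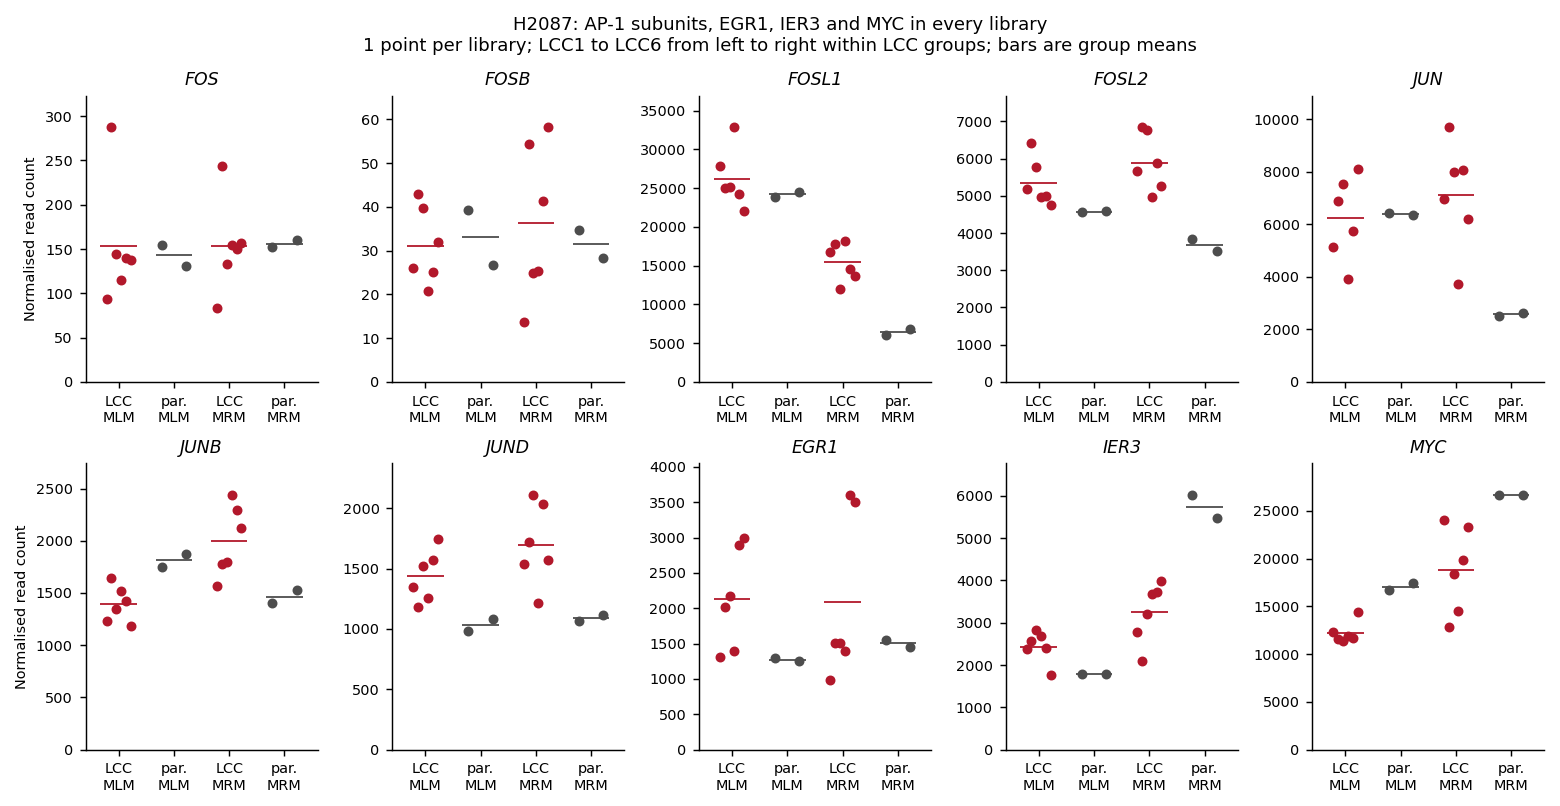
Normalised read counts (linear axis from 0, 1 panel per gene) of the 10 genes in every H2087 library, with points for libraries and bars for group means, in LCC and parental cells in MLM and then in MRM. In MRM the 2 parental libraries lay below all 6 derivatives for FOSL1, FOSL2, JUN, JUNB and JUND and above all 6 for IER3 and MYC.

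FOSL1, IER3 and MYC differed between media in both H2087 populations. In LCC, FOSL1 was higher and JUNB, IER3 and MYC lower in MLM than in MRM, 4 of 10 members against 37.4% of genes called (18.5% higher and 18.9% lower). In parental cells, FOSL1 and JUN were higher and IER3 and MYC lower, 4 of 10 against 38% of genes (20.1% higher and 17.9% lower). Both shares are close to the background, so the count of members says nothing particular about them. FOSL1 differed by 0.76 ± 0.11 in LCC (limma adjusted p = 9.99e-05, higher in MLM in 6 of 6 derivatives) and by 1.91 ± 0.19 in parental cells (limma adjusted p = 6.26e-06). The MLM and MRM libraries did not overlap in either population, as for 6.72% of all genes above and 9.35% below in LCC, and for 45.8% and 41.2% in parental cells. MYC differed by -0.59 ± 0.13 in LCC (limma adjusted p = 0.00317, lower in MLM in 6 of 6 derivatives) and by -0.64 ± 0.23 in parental cells (limma adjusted p = 0.0407). The parental MYC call was lost without any 1 of the 4 parental libraries (limma adjusted p = 0.114 to 0.153), when scaled to library totals (0.0662), with no low-value filter (0.0505) and with edgeR (0.0517). IER3 was lower in MLM by 1.68 on the log2 scale in parental cells, at -1.68 ± 0.25 (limma adjusted p = 0.000153), and by less in LCC, at -0.40 ± 0.15 (limma adjusted p = 0.0439). In LCC1 to LCC6 in turn IER3 was 2384, 2561, 2821, 2695, 2392 and 1758 in MLM against 2782, 2102, 3199, 3691, 3733 and 3980.4 in MRM, lower in 5 of 6. The LCC call was lost without the library in doubt, LCC6 of MRM (limma adjusted p = 0.0988), without LCC3, LCC4 or LCC5 of MRM or LCC1, LCC2, LCC5 or LCC6 of MLM (0.0528 to 0.0947), when scaled to library totals (0.114), with edgeR (0.0553), with no low-value filter (0.0539) and when only LCC libraries were fitted (0.0704). JUNB was lower in MLM in all 6 derivatives (-0.51 ± 0.11, limma adjusted p = 0.00193), and in parental cells it was 1748 and 1876 in MLM against 1401 and 1531 in MRM (0.31 ± 0.19, limma adjusted p = 0.219). JUN differed by 1.31 ± 0.37 in parental cells (limma adjusted p = 0.0113), a call lost without parental library 1 of MRM (0.0642) or parental library 1 or 2 of MLM (0.0572 and 0.0551). In LCC its difference was -0.18 ± 0.21 (limma adjusted p = 0.55). FOSL2 differed by -0.14 ± 0.09 in LCC (limma adjusted p = 0.253) and passed with the derivative as a replicate block (0.0248), lower in MLM in 5 of 6 derivatives. JUND differed by -0.23 ± 0.13 in LCC (limma adjusted p = 0.179) and passed without LCC4 of MRM (0.036). When only parental libraries were fitted, FOSL2 (0.31 ± 0.16 in the fit over all groups), JUNB and EGR1 (-0.24 ± 0.54) also passed (limma adjusted p = 0.000938, 0.00305 and 0.00484). That fit called 9026 of 12535 genes, against 4761 in the fit over all groups, so these passes say nothing particular about the members. Heat-shock and handling-stress genes moved with the same comparison: 8 of 16 tested were called higher and 1 lower in MLM in parental cells, with a median log2 difference of 0.66, and 9 were called higher and 1 lower in LCC, with a median of 0.24. Their part in the result was not tested.

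The size of the LCC difference itself depended on the medium for 4 H2087 members, against 10.7% of all genes (4.08% higher and 6.64% lower). Taken as the LCC difference in MLM minus that in MRM, it was -1.14 ± 0.22 for FOSL1 (limma adjusted p = 0.00518), -1.49 ± 0.42 for JUN (0.0367), -0.82 ± 0.22 for JUNB (0.0272) and 1.28 ± 0.29 for IER3 (0.0125). FOSL1 remained past the threshold without any 1 of the 16 libraries (limma adjusted p at most 0.0469). JUN was lost without any 1 of the 4 parental libraries or without LCC1 or LCC5 of either medium (limma adjusted p = 0.0504 to 0.148), JUNB without any 1 of the 4 parental libraries (0.0713 to 0.141), and IER3 without parental library 1 of MRM (0.0792) or parental library 1 or 2 of MLM (0.0665 and 0.0693). FOSL2 gave -0.45 ± 0.18 (limma adjusted p = 0.121). Parental cells in MRM had the lowest FOSL1 and JUN and the highest IER3 of the 4 groups.

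In HCC1954, FOSB, FOSL1 and IER3 were higher in LCC than in parental cells in MLM, 3 of 10 members against 39.9% of 15397 genes called (19.7% higher and 20.3% lower). FOSB and MYC were higher and JUNB lower in MRM, 3 of 10 against 40.7% of genes (20.4% higher and 20.2% lower). Both shares lie somewhat below the background, and with 10 genes the counts say nothing particular about the members. The median log2 difference of the members was 0.26 in MLM and 0.14 in MRM, against 0.00032 and -0.0030 for all genes. The 4 LCC libraries came from 2 derivatives, and the 2 derivatives differed from each other for most members, as described further on.

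FOSB in MLM was 255 and 236 in LCC2 and 648 and 672 in LCC1, against 88.1, 79 and 78.2 in parental cells (2.29 ± 0.40, limma adjusted p = 0.000679). In MRM it was 156 and 129.8 in LCC2 and 288 and 315 in LCC1, against 51.9, 52.6 and 58 (1.92 ± 0.40, limma adjusted p = 0.0021). All 4 LCC libraries lay above all 3 parental libraries in each medium, as for 22.6% of all genes in MLM and 25.8% in MRM (23.9% and 26% lay below), and both calls held without any 1 library. FOSL1 in MLM was 1229 and 1290.4 in LCC2 and 6731 and 6992 in LCC1, against 369, 306 and 977 in parental cells (2.61 ± 0.90, limma adjusted p = 0.0356). In MRM it was 644 and 595 in LCC2 and 2555 and 8647 in LCC1, against 377, 352 and 330.5 (2.27 ± 0.90, limma adjusted p = 0.0616). The groups did not overlap in either medium, and library 2 of LCC1 was far above library 1 in MRM. The MLM call was lost without parental library 1 or 2 (limma adjusted p = 0.106 and 0.12), without LCC1 library 1 or 2 (0.0889 and 0.0888) and with derivative means in place of libraries (0.0588). Without the libraries that stand apart the MLM difference was 3.12 (limma adjusted p = 0.00959). The MRM difference was 1.49 without LCC1 library 2, and it passed without either LCC2 library (limma adjusted p = 0.0353 and 0.0315), when scaled to library totals (0.0412), with edgeR (0.024) and with DESeq2 (0.00287). FOSL2 and FOS passed in neither medium. FOSL2 differed by 0.20 ± 0.18 in MLM (limma adjusted p = 0.417) and 0.23 ± 0.18 in MRM (0.343), or by 0.34 and 0.13 without the libraries that stand apart. FOS was 96 and 108 in LCC2 and 341 and 322 in LCC1, against 202, 327 and 411 in parental cells in MLM (-0.70 ± 0.47, limma adjusted p = 0.259). In MRM it was 319 and 291 in LCC2 and 175 and 521 in LCC1, against 256, 301 and 261 in parental cells (0.16 ± 0.47, limma adjusted p = 0.82), and the difference was -0.10 without the libraries that stand apart.

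Of the Jun genes, JUNB in MRM was 3749.9 and 3732 in LCC2 and 4673 and 4159.9 in LCC1, against 6922, 7359 and 6504 in parental cells (-0.77 ± 0.29, limma adjusted p = 0.0489). All 4 LCC libraries lay below the parental range, but the call was lost without any 1 of the 7 libraries (limma adjusted p = 0.055 to 0.13), without the pair of libraries that stand apart (0.0578), with derivative means (0.1), when scaled to library totals (0.0647) and with no low-value filter (0.0592). JUND in MRM was 3161 and 3268 in LCC2 and 3034 and 1591 in LCC1, against 4159.6, 4146 and 3476, also without overlap (-0.56 ± 0.22, limma adjusted p = 0.0588). Without either LCC2 library it passed (limma adjusted p = 0.0482 and 0.0408). In MLM JUND was 8137 and 8389.8 in LCC2 and 8157 and 8428 in LCC1, against 11112, 11850.0 and 7861 in parental cells, where library 3 was the exception (-0.29 ± 0.22, limma adjusted p = 0.319). Without the libraries that stand apart, JUND passed in both media, at -0.47 in MLM (limma adjusted p = 0.000995) and -0.31 in MRM (0.00735). That setting, chosen after seeing the data, takes out the lowest parental value in MLM and the lowest LCC value in MRM. The MRM difference was smaller without them, so its pass comes from a smaller SE. JUN passed in neither medium (0.28 ± 0.24 in MLM, limma adjusted p = 0.391, and 0.04 ± 0.24 in MRM, 0.912), and in MRM it was -0.17 without the libraries that stand apart.

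IER3 in MLM was 4438 and 4609 in LCC2 and 11241 and 12463 in LCC1, against 2518, 2755 and 5007 in parental cells (1.16 ± 0.43, limma adjusted p = 0.0446). Parental library 3 lay above both LCC2 libraries. The call was lost without parental library 1 or 2 (limma adjusted p = 0.154 and 0.134), without LCC1 library 1 or 2 (0.111 and 0.114), with derivative means (0.0833), with no low-value filter (0.0534) and when only the MLM libraries were fitted (0.0798). In MRM IER3 was 3650.4 and 3712 in LCC2 and 6601 and 9479 in LCC1, with the parental libraries between them at 4893, 5097 and 4840.5 (0.13 ± 0.43, limma adjusted p = 0.839, and -0.14 without the libraries that stand apart). MYC in MRM was 3428 and 3376 in LCC2 and 5276 and 6879 in LCC1, against 2423, 2279 and 2220.2 in parental cells, without overlap (0.97 ± 0.25, limma adjusted p = 0.00795). It held without any 1 library (limma adjusted p at most 0.031). In MLM MYC was 5153 and 5121 in LCC2 and 7723 and 8072 in LCC1, against 3568, 3991 and 5251 (0.60 ± 0.25, limma adjusted p = 0.0772), and it passed without the libraries that stand apart (0.0206) and when scaled to library totals (0.0187). EGR1 had no common direction. In MLM it was 1055 and 1072 in LCC2 and 2129.5 and 2356 in LCC1, against 904, 889.9 and 2749 in parental cells (0.24 ± 0.47, limma adjusted p = 0.716, and 0.78 without the libraries that stand apart, limma adjusted p = 0.209). In MRM it was 1907 and 1857 in LCC2 and 582 and 1203 in LCC1, against 1230.2, 1234 and 1216 (0.03 ± 0.47, limma adjusted p = 0.965). LCC1 was thus the higher derivative in MLM and the lower one in MRM.

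**Figure D2:**
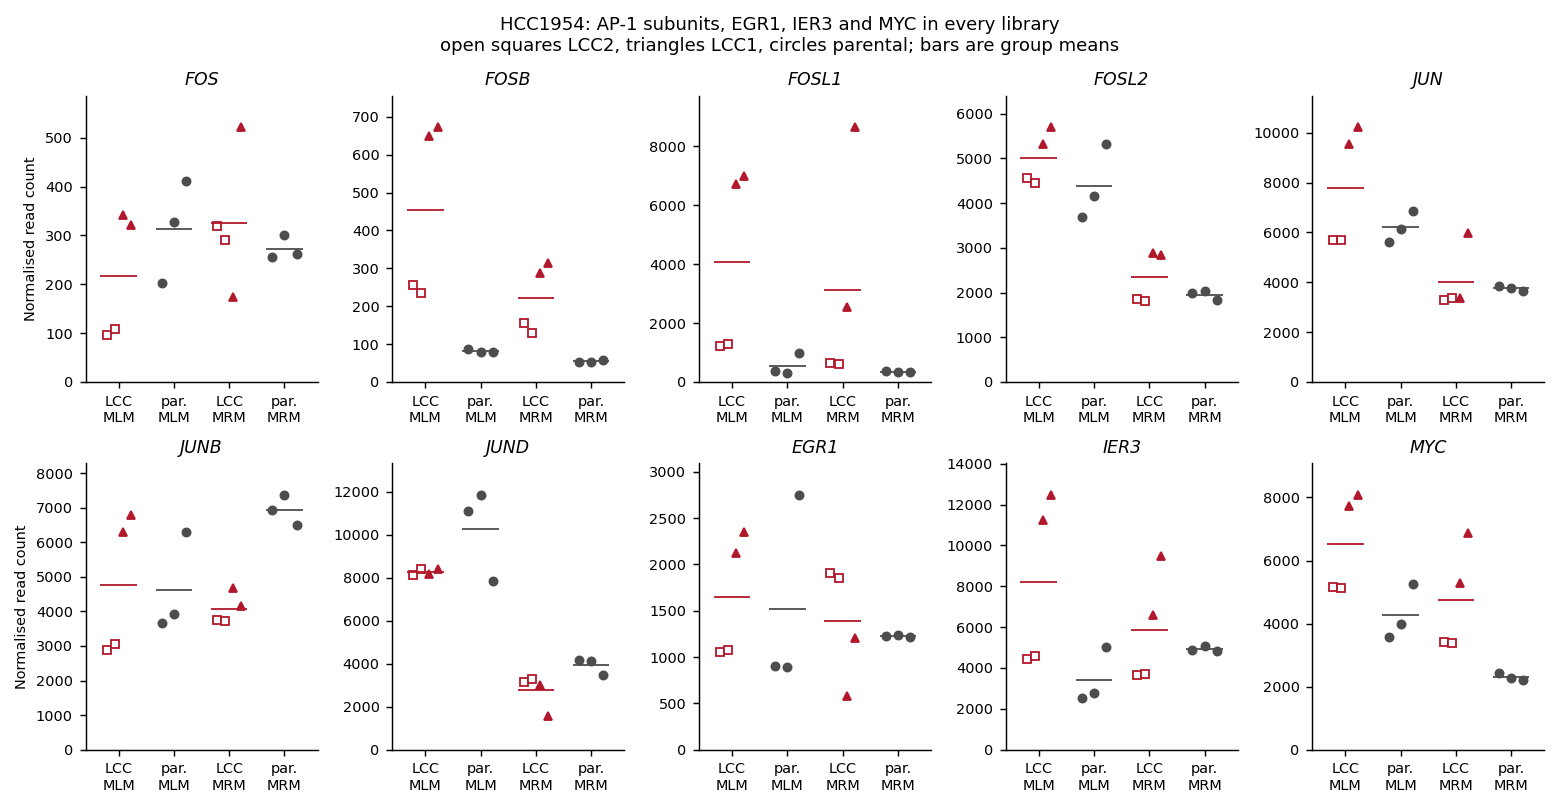
Normalised read counts (linear axis from 0, 1 panel per gene) of the 10 genes in every HCC1954 library, with open squares for LCC2, triangles for LCC1, circles for parental cells and bars for group means. FOSB and FOSL1 lay higher in all LCC libraries than in parental cells. LCC1 lay above LCC2 for FOSB, FOSL1, FOSL2, JUNB, IER3 and MYC in both media. JUND and FOSL2 lay higher in MLM than in MRM in both populations.

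FOSL2 and JUND differed between media in both HCC1954 populations. In LCC, FOSL2, JUN and JUND were higher in MLM than in MRM, 3 of 10 members against 23% of genes called (12.1% higher and 10.9% lower), and none was lower. In parental cells, FOSL2, JUND and MYC were higher, 3 of 10 against 24.6% (13.4% higher and 11.1% lower), and none was lower. The members' median log2 difference was 0.64 in LCC and 0.51 in parental cells, against 0.02 for all genes tested in each. JUND in LCC was 8137, 8389.8, 8157 and 8428 in MLM against 3161, 3268, 3034 and 1591 in MRM (1.64 ± 0.20, limma adjusted p = 0.000215). In parental cells it was 11112, 11850.0 and 7861 in MLM against 4159.6, 4146 and 3476 in MRM (1.37 ± 0.23, limma adjusted p = 0.00155). The MLM and MRM libraries did not overlap in either population, as for 11.7% of all genes above and 11.8% below in LCC, and for 31.5% and 28% in parental cells. FOSL2 in LCC was 4551, 4451, 5319 and 5693 in MLM against 1846, 1816, 2879.9 and 2832 in MRM (1.12 ± 0.17, limma adjusted p = 0.00076). In parental cells it was 3687, 4169 and 5317 in MLM against 1992, 2023 and 1843 in MRM (1.15 ± 0.19, limma adjusted p = 0.0014). These 4 calls held without any 1 library.

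JUN was higher in MLM in 4 of 4 same-named LCC pairs. Libraries of a pair share a derivative and a number, so the 4 pairs stand for 2 derivatives. In LCC it was 5696 and 5679 in LCC2 and 9564 and 10216 in LCC1 in MLM, against 3294 and 3373 in LCC2 and 3366 and 5965 in LCC1 in MRM (0.96 ± 0.22, limma adjusted p = 0.00907). The LCC call was lost when only LCC libraries were fitted (limma adjusted p = 0.0549). In parental cells JUN was 5634, 6148 and 6848 in MLM against 3838, 3767 and 3667 in MRM, without overlap (0.72 ± 0.26, limma adjusted p = 0.0588), and it passed when only parental libraries were fitted (0.000826) and with DESeq2 (0.035). JUNB in parental cells was 3666, 3927 and 6296 in MLM against 6922, 7359 and 6504 in MRM, without overlap (-0.62 ± 0.31, limma adjusted p = 0.161). It passed as lower in MLM when only parental libraries were fitted (0.0369), and in LCC it differed by 0.12 ± 0.27 (0.783). The fit of parental libraries alone called 6915 of the 15397 genes tested, against 3784 in the fit over all groups. MYC in parental cells was 3568, 3991 and 5251 in MLM against 2423, 2279 and 2220.2 in MRM (0.87 ± 0.27, limma adjusted p = 0.0334). That call was lost without library 1, 2 or 3 of MRM (limma adjusted p = 0.0715, 0.086 and 0.0982) or library 2 or 3 of MLM (0.0728 and 0.106). In LCC, MYC was higher in MLM in 4 of 4 pairs (0.49 ± 0.23, limma adjusted p = 0.147) and passed without LCC1 library 2 of MRM (0.0319). LCC libraries of the same derivative shared deviations across media, so the fit with library name as a replicate block is given too: in it MYC passed in LCC (limma adjusted p = 0.0108), as did FOSB (0.96 ± 0.37 in the fit without the block, limma adjusted p = 0.0804, and 0.00114 with it). FOSB was higher in MLM in 4 of 4 LCC pairs; it also passed without LCC1 library 2 of MRM (limma adjusted p = 0.0469), without LCC2 library 1 or 2 of MLM (0.0491 and 0.0376) and with DESeq2 (0.0269). Over all genes the block raised the count called in LCC to 5720, against 3546 without it. This block counts 2 derivatives as 4 pairs. Among the rest, FOSL1 in parental cells differed by 0.44 ± 0.97 (limma adjusted p = 0.782), and without library 3 of MLM by -0.07. The parental EGR1 difference was 0.09 ± 0.51 (limma adjusted p = 0.923), and -0.45 without that library. In LCC, FOS differed by -0.72 ± 0.44 (limma adjusted p = 0.26) and EGR1 by 0.30 ± 0.44 (0.664). These averages join unlike derivatives. FOS was lower in MLM in both LCC2 pairs (-1.72 and -1.42), and the LCC1 pairs differed by 0.96 and -0.69. EGR1 was lower in MLM in the LCC2 pairs (-0.85 and -0.79) and higher in the LCC1 pairs (1.87 and 0.97). The LCC difference did not pass a test against medium for any member (limma adjusted p at least 0.601), and at unadjusted p under 0.05 limma gave none of the 10, against 1540 of the 15397 genes tested. At an adjusted p under 0.05, limma called 0.156% of genes (0.0649% higher and 0.0909% lower), and edgeR and DESeq2 also called none of the 10.

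**Figure D3:**
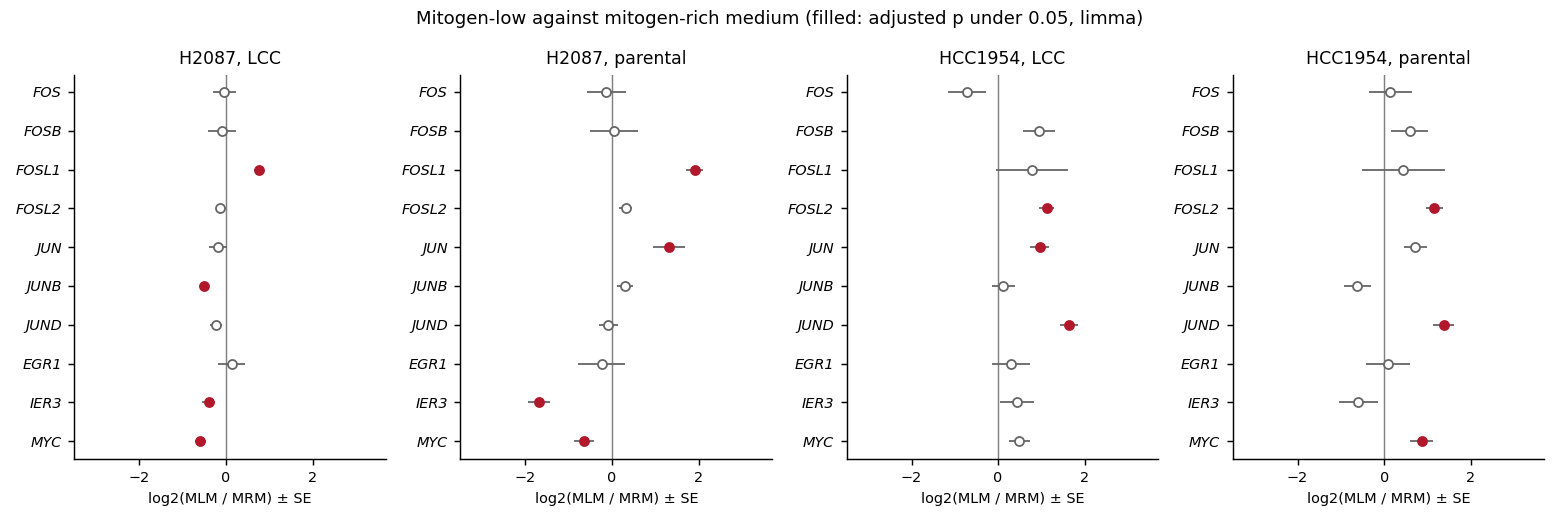
Log2 of the ratio MLM to MRM (points) with its SE (bars) for each gene in LCC and parental cells of both lines, filled where the limma adjusted p is under 0.05. In HCC1954, FOSL2 and JUND lay above 1 in both populations, whereas in H2087 FOSL1 lay above 0 and IER3 and MYC below 0 in both.

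The 2 HCC1954 derivatives differed from each other in 8 of 10 members, all lower in LCC2 than in LCC1, against 53.3% of genes called between the derivatives (27% lower and 26.2% higher). The median log2 difference over the members was -0.70, against 0.0042 for all genes. Averaged over the media, FOSL1 differed by -2.68 ± 0.38 (limma adjusted p = 0.000146), FOSB by -1.25 ± 0.09 (2.2e-06), IER3 by -1.25 ± 0.18 (0.000202) and MYC by -0.72 ± 0.11 (0.000266). The single-library values did not overlap between LCC2 and LCC1 for these 4 genes in either medium, and the same held for JUNB and FOSL2. With 2 libraries on each side this is a weak criterion, and its share over all genes was not counted. JUNB differed by -0.69 ± 0.14 (limma adjusted p = 0.00161), JUN by -0.61 ± 0.14 (0.00299), FOSL2 by -0.47 ± 0.09 (0.00143) and FOS by -0.84 ± 0.29 (0.0315). For JUN the MRM libraries of LCC1 (3366 and 5965) spanned the LCC2 value of 3373, so its separation lay in MLM. The FOS call was lost when any 1 of 7 of the 8 LCC libraries was left out (limma adjusted p = 0.0594 to 0.0843) and when scaled to library totals (0.0628). Without LCC1 library 2 of MRM the FOS difference was -0.45, and it passed when parental library 3 of MLM was left out too (limma adjusted p = 0.00464). Without this pair the JUN difference was -0.41 (limma adjusted p = 3.78e-08) and that of JUND 0.04 (0.527). FOS did not overlap in MLM, at 96 and 108 in LCC2 against 341 and 322 in LCC1, while in MRM both LCC2 libraries lay between the 2 LCC1 libraries. JUND (0.27 ± 0.18, limma adjusted p = 0.223) and EGR1 (0.05 ± 0.32, limma adjusted p = 0.916) did not pass. JUND passed without LCC1 library 1 of MRM (limma adjusted p = 0.00521), which leaves LCC1 library 2 alone in its group. EGR1 passed without the libraries that stand apart, at 0.31 (limma adjusted p = 7.19e-06), an average over opposite signs in the 2 media. Both of these fits assume that the lone LCC1 library of MRM varies like the other groups. With 2 libraries of each derivative in a medium, these tests compare 2 derivatives and not derivatives in general.

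**Figure D4:**
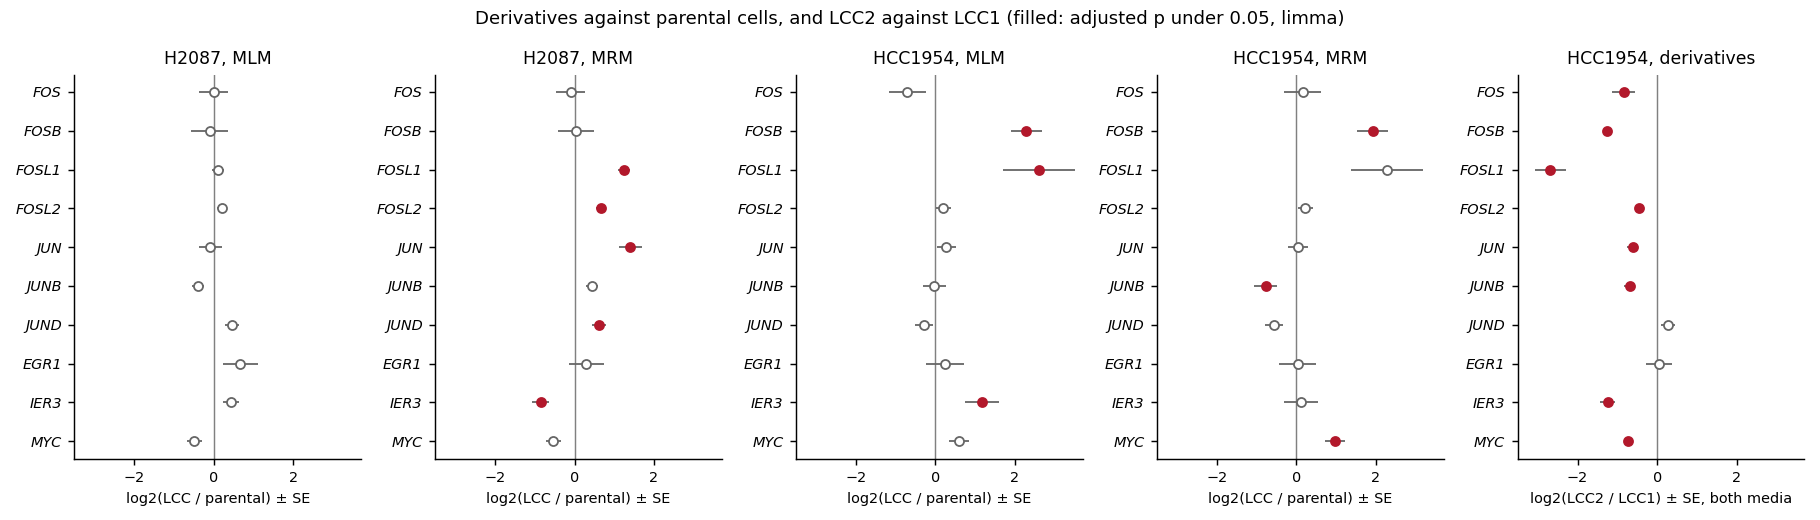
Log2 of the ratio LCC to parental (first 4 panels) and LCC2 to LCC1 (last panel), as points with SE bars, for each gene and filled where the limma adjusted p is under 0.05. No H2087 gene is filled in MLM and 5 are in MRM; between the HCC1954 derivatives 8 of 10 are filled, all to the left of 0.

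The lists of related genes were chosen with results of these data known and serve as a description. Each count is to be read against the share of all genes called in the same comparison. In H2087 these were 12.1% higher and 10.1% lower in LCC in MRM, 4.99% and 8.52% in LCC in MLM, 18.5% and 18.9% in MLM against MRM in LCC, and 20.1% and 17.9% in parental cells. In H2087 in MRM, 16 of 37 tested other immediate-early genes were higher and 2 lower in LCC than in parental cells (median log2 difference 0.41, against -0.0016 for all genes). They included the kinase gene SGK1 (1.40 ± 0.19, limma adjusted p = 0.000211), the zinc-finger factor KLF6 (1.27 ± 0.25, 0.00297) and the GTPase gene RHOB (1.20 ± 0.14, 7.06e-05). In MLM 5 were higher and 1 lower, with a median of 0.06. Between media in parental cells, 12 were higher and 5 lower in MLM, among them PLK2 (2.93 ± 0.79, limma adjusted p = 0.00957) and SGK1 (1.76 ± 0.23, 4.93e-05). Among 9 tested genes for SRF, its partners and ETS factors, ETS2 and ETS1 differed in sign between media: ETS2 was higher in LCC in MRM (0.99 ± 0.15, limma adjusted p = 0.000615) and lower in MLM (-0.49 ± 0.15, 0.0481), and ETS1 likewise (0.84 ± 0.15, 0.00158, and -0.53 ± 0.15, 0.0305). Among 22 tested AP-1 target genes, 5 were higher and 1 lower in LCC in MRM, led by the cyclin gene CCND1 (1.27 ± 0.13, limma adjusted p = 2.47e-05) and the EGF-receptor ligand gene AREG (1.10 ± 0.23, 0.00383). In LCC between media, 2 of them were higher and 8 lower in MLM, with AREG at -2.22 ± 0.16 (limma adjusted p = 3.07e-07) and the related ligand gene EREG at -1.41 ± 0.11 (3.78e-07), whereas FOSL1 was higher in MLM in the same libraries. Of 33 tested MYC target genes, 1 was higher and 8 lower in LCC in MLM (median -0.17), including the ribosome-assembly genes BOP1 (-0.86 ± 0.08, limma adjusted p = 6.21e-06) and NOLC1 (-0.63 ± 0.07, 3.08e-05). In parental cells, where MYC itself was lower in MLM, 12 of the 33 were higher and 2 lower in MLM (median 0.32).

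In HCC1954 the shares of all genes called were 19.7% higher and 20.3% lower in LCC in MLM, 20.4% and 20.2% in LCC in MRM, 12.1% and 10.9% in MLM against MRM in LCC, and 26.2% and 27% in LCC2 against LCC1. Between LCC and parental cells the lists were mixed. Of 39 tested immediate-early genes, 10 were higher and 11 lower in LCC in each medium, with PTGS2, the gene of cyclooxygenase 2, at -5.05 ± 0.77 in MLM (limma adjusted p = 0.000247) and the GTPase gene GEM at 4.34 ± 0.90 (0.00218). Of 20 ERK feedback genes and ETS targets, 8 were higher and 2 lower in LCC in MLM (median 0.34), led by the phosphatase gene DUSP1 (1.51 ± 0.47, limma adjusted p = 0.0232) and, as the largest decrease, SPRY1 (-1.49 ± 0.49, 0.0279). Of 23 tested AP-1 target genes, 6 were higher and 2 lower in MLM, including the receptor gene AXL (3.91 ± 0.55, limma adjusted p = 0.000133). Between media in LCC, none of the 23 was called higher and 1 lower, while the AP-1 genes FOSL2, JUN and JUND were higher in MLM. Between the derivatives, more genes of the immediate-early list were lower than higher in LCC2 (16 and 4 of 39), whereas the MYC and MAX network had 4 of 17 each way. In LCC2 against LCC1, 14 of 23 AP-1 target genes were lower and none higher (median -0.87), including the collagenase gene MMP13 (-3.40 ± 0.50, limma adjusted p = 0.0002). Of the ERK feedback genes, 9 were lower and 1 higher (median -0.30), among them the ERK phosphatase gene DUSP6 (-1.49 ± 0.18, limma adjusted p = 5.51e-05) and DUSP5 (-1.45 ± 0.12, 3.29e-06). Of 33 MYC targets, 18 were lower and 2 higher (median -0.35), among them LDHA, the gene of a lactate dehydrogenase subunit (-1.40 ± 0.26, limma adjusted p = 0.000968). The MYC relative MYCL was also lower (-2.15 ± 0.23, limma adjusted p = 2.03e-05). Heat-shock genes were lower as well, 9 of 17 against 1 higher (median -0.34), and their part in these differences was not tested.

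**Figure D5:**
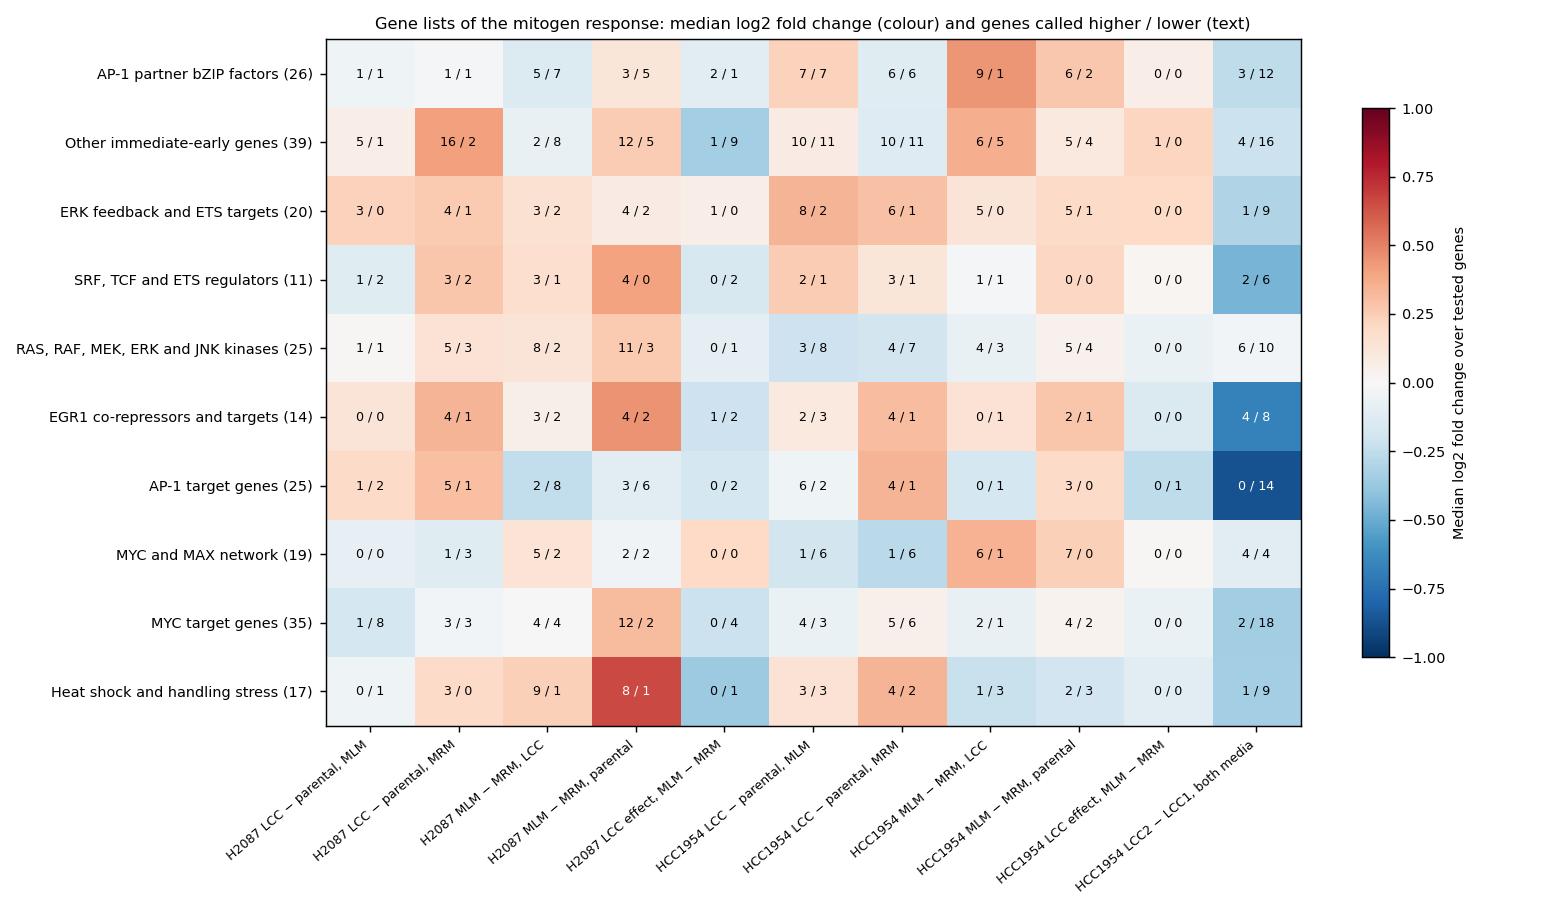
Median log2 difference over the tested genes (colour, scale from -1 to 1) and numbers of genes called higher / lower (text) for 10 gene lists in 11 comparisons, with the number of genes listed in parentheses. The darkest blue cell is the AP-1 target list in LCC2 against LCC1 (median -0.87), and the darkest red cell is the heat-shock list in H2087 parental cells between media (median 0.66).

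The remaining lists were measured in the same fits, and their counts are read against the same shares of all genes, which in MLM were 20.1% higher and 17.9% lower for H2087 parental cells and 19.7% and 20.3% for HCC1954 LCC against parental cells. Of 14 tested EGR1 co-repressor and target genes, 4 were higher and 1 lower in H2087 LCC in MRM (median 0.34), among them the fibronectin gene FN1 (3.81 ± 0.54, limma adjusted p = 0.000309) and the adhesion receptor gene ICAM1 (-0.98 ± 0.14, 0.000391), although EGR1 itself did not pass. None of the 14 was called in MLM. In HCC1954, 8 of 13 were lower and 4 higher in LCC2 than in LCC1 (median -0.68). Of 24 tested kinases and adaptors from RAS to ERK and JNK, 11 were higher and 3 lower in MLM in H2087 parental cells (median 0.26). In HCC1954, 3 of 25 were higher and 8 lower in LCC in MLM (median -0.20). Of 17 tested genes of the MYC and MAX network, 1 was higher and 6 lower in HCC1954 LCC in each medium, with MYCL at -4.06 ± 0.71 in MLM (limma adjusted p = 0.000684), while MYC itself was higher in MRM. Of 26 other bZIP factor genes that can pair with Fos or Jun proteins, 9 were higher and 1 lower in MLM in HCC1954 LCC (median 0.44), beside FOSL2, JUN and JUND. In H2087 1 of 24 was higher and 1 lower in LCC in each medium. Of 12 tested lung identity genes, 2 were higher and 1 lower in H2087 LCC in MRM and none was called in MLM. Of 14 tested ERBB2 and breast identity genes, 1 was higher and 6 lower in HCC1954 LCC in MLM. Most markers of other cell types were too low to test, with 3 blood cell and 4 endothelial genes tested in each line. Of these, 1 blood cell gene was lower in H2087 LCC in each medium and none was called in HCC1954 LCC, and 1 endothelial gene was lower in HCC1954 LCC in MLM. The B-cell gene MS4A1 and the gene HBA2 were at 0 in all 4 H2087 groups. The list of 11 blood cell markers was not absent there. Its summed counts in H2087 were 2490 to 5219 in LCC and 5792 to 5971 in parental cells in MLM. In MRM they were 5107 to 8393 in LCC and 7229 to 7255 in parental cells.

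The genes most like each member were taken by the lower of the Pearson correlations over the 16 H2087 and the 14 HCC1954 libraries, among 9788 genes. These are descriptions, since the libraries of a line share groups and normalisation. JUNB was most like ZFP36, an immediate-early gene for an RNA-binding protein (lower r = 0.857). FOSL1 was most like CCDC137 (0.941) and EIF6 (0.883), a ribosome-assembly factor gene. FOSL2 and JUN shared ZNF622 as their nearest gene (0.878 and 0.84). MYC was nearest to TAF4B (0.89), a TFIID subunit gene, and IER3 to PPP1R15B (0.818), a phosphatase regulator gene. JUND was nearest to GNL1 (0.85). FOS and EGR1 had no close likeness, at most 0.654 (KLHL28) and 0.66 (RNF6). FOSB was too low in H2087 to enter. The 20 nearest expressed genes on the chromosome of each member, 10 on each side, showed how far a wider stretch moved with it. In H2087 their median log2 difference was at most 0.31 in size for any member and comparison, and for FOSL1 between media in parental cells it was 0.30, against 1.91 for FOSL1 itself. In HCC1954, neighbours of FOSL1 had medians of 0.43 in MLM and 0.38 in MRM in LCC against parental cells, and -0.40 in LCC2 against LCC1. Neighbours of JUN had medians of -0.53 in MLM and -0.43 in MRM in LCC against parental cells, where JUN itself did not pass. A difference in copy number was not measured and its part was not tested.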

How the data were processed

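Per the labels' protocols, total RNA was extracted with a spin kit and sequenced from standard Illumina libraries. Per the submitters' processing notes, Bowtie2 2.2.4, HTSeq 0.6.1p1, DESeq2 1.8.1 and the builds hg19 and GRCh37 were used; their settings are not given in the sources used here. The authors deposited a normalised signal per gene and library, that is a read count divided by a size factor, in 1 table per line and medium. Whole reads were recovered from it for 100% of values within 0.01 reads. Size factors recomputed over both media of a line matched the deposited ones, so media were compared within a line, and lines were not tested against each other.

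The 10 members and all gene lists were chosen with earlier results of these data known. Genes with a mean of at least 10 over a line were tested with limma 3.58.1 (R 4.3.3) on log2(value + 1), with a mean-variance trend, 4 groups per line in 1 fit, and Benjamini-Hochberg adjustment over all genes tested; called means an adjusted p under 0.05. One fit per line puts each comparison and their difference on 1 scale and does not estimate the spread from 2 parental libraries alone. LCC2 and LCC1 were compared in a fit with 6 groups, averaged over media. Fold changes on this scale understate changes of low genes. The test was checked on simulated counts, drawn independently for each library with the same spread in every group. Derivatives were not simulated, so that check does not cover libraries that share a derivative or groups of unequal spread. Alternatives were pseudocounts of 0.5 and 5, no filter, scaling to library totals, edgeR 4.0.16, DESeq2 1.42.0, the compared groups alone, derivative means, a replicate block and leaving out each library. In H2087, LCC libraries of the same name are of the same derivative and deviated together between media (r = 0.411 to 0.756), so they are paired. The main fit does not use this pairing, and only the replicate block does. With the block, the H2087 LCC differences between media of FOSL1, JUNB, IER3 and MYC passed too (limma adjusted p at most 0.0413). The r of 0.411 is that of LCC6, whose MRM library is in doubt. In HCC1954 the same name gives the same derivative and a number (r = 0.507 to 0.698). There LCC2 library 1 of MRM was nearer to LCC2 library 2 (0.689) than to library 1 (0.67) of MLM. Same-named HCC1954 pairs therefore share a derivative and not a known match of libraries. Parental libraries share only a number (r = 0.0183 to 0.116).

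List genes were named by size, up to 4 called per list and comparison among genes with a mean of at least 100. Some genes that this rule names are not reported here. Chromatin samples (12) and 1 H2087 parental MLM library were not analysed here. Read numbers were lowest for FOS and FOSB in H2087.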

Additional observations from a re-analysis of the deposited data

Results flagged for a closer look

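In 4 of 40 gene and library groups of 4 or more, 1 library lay apart from the others by Dixon's criterion. Its rate of about 1 in 20 groups holds for independent draws from 1 population. These groups hold different derivatives and the genes share libraries, so the count cannot be set against that rate. FOS in H2087 LCC2 in MLM was 287.4, with the next library at 145. MYC in H2087 LCC6 in MLM was 14411, the highest of 6. In HCC1954 in MRM, LCC1 library 2 was the highest for JUN (5965) and the lowest for JUND (1591). It is the library that also stands apart over all genes.

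The LCC difference depended on the medium in H2087, by a limma test of the difference itself, for FOSL1 (-1.14), IER3 (1.28), JUN (-1.49) and JUNB (-0.82).

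For some members the groups did not overlap in either line and the differences had opposite signs. These contrasts between lines were not tested. LCC minus parental in MRM was 0.43 in H2087 and -0.77 in HCC1954 for JUNB, 0.61 and -0.56 for JUND, and -0.54 and 0.97 for MYC. Of these, 0.43 for JUNB, -0.56 for JUND and -0.54 for MYC had not passed. Groups in this comparison did not overlap for 19.5% of all genes above and 18.4% below in H2087, and for 25.8% and 26% in HCC1954. MLM minus MRM in parental cells was 0.31 in H2087 and -0.62 in HCC1954 for JUNB, and -0.64 and 0.87 for MYC. Neither JUNB difference had passed in the fit over all groups. Each passed when only parental libraries were fitted (limma adjusted p = 0.00305 in H2087 and 0.0369 in HCC1954), a fit that called many more genes in each line. Parental media did not overlap for 45.8% of all genes above and 41.2% below in H2087, and for 31.5% and 28% in HCC1954.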

How the results depend on the processing

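Of 1920 member values under the alternatives, 1715 kept their direction and side of the threshold, 125 crossed it and 80 changed sign. None of the 37 called differences changed sign. With no filter, the compared groups alone, the replicate block or derivative means, the log2 difference stays the same by construction and only its p-value can change. Leaving out LCC6 of MRM is counted both among the single libraries and as the library in doubt. The tally therefore overstates stability. Counts of genes called ranged as follows when 1 library was left out: 362 to 1867 (1694 with all) for H2087 LCC against parental in MLM, 742 to 2982 (2783) in MRM, 2851 to 3408 (4761) between media in parental cells, 426 to 1622 (1344) for the dependence of the LCC difference on medium, and in HCC1954 2013 to 3576 (3784) between media in parental cells and 0 to 50 (24) for that dependence. The low ends in H2087 came from leaving out a parental library. With only the compared groups, counts were 1807 for H2087 LCC against parental in MRM, 9026 between media in parental cells, and in HCC1954 1844 between media in LCC and 6915 in parental cells. DESeq2 called 2547 for H2087 LCC against parental in MLM. For the dependence on medium in HCC1954, counts were 10 at a pseudocount of 0.5, 13 with no filter, 2 with edgeR, 308 with DESeq2, 187 without the 2 libraries that stand apart and 0 with derivative means.

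With library name as a replicate block, counts were 3426 for the H2087 dependence on medium, 5720 between media in HCC1954 LCC, 5816 in HCC1954 parental cells and 116 for the HCC1954 dependence. Where parental libraries share only a number, the block brought past the threshold FOSL2 in H2087 parental cells (limma adjusted p = 0.00628) and in the dependence on medium (0.00519), and FOSB (0.0143), JUN (0.00714) and IER3 (0.0351) in HCC1954 parental cells. Beside the LCC calls given above, the block changed no other member call.

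Sign changes were seen in differences that had not passed. Scaled to library totals, FOS was -0.054 (LCC against parental, MLM) and 0.060 (media, LCC) and FOSB -0.048 (LCC against parental, MRM) in H2087, and JUNB 0.090 (LCC against parental, MLM) in HCC1954. With edgeR, FOS was 0.039 (media, H2087 LCC), JUNB 0.028 (LCC against parental, MLM, HCC1954), and the HCC1954 dependence on medium -0.27 for FOSL1 and -0.063 for EGR1; with DESeq2 the last 3 were 0.041, -0.26 and -0.051, and EGR1 was -0.0004 in LCC2 against LCC1. Without LCC6 of MRM, FOSB was -0.12 (LCC against parental, MRM), 0.065 (media, LCC) and 0.021 (dependence). Without the 2 HCC1954 libraries apart, LCC against parental was 0.22 for JUNB in MLM and -0.10 for FOS, -0.17 for JUN and -0.14 for IER3 in MRM, media in parental cells -0.080 for FOS, -0.069 for FOSL1 and -0.45 for EGR1, and the dependence 0.22 for FOSL2 and -0.16 for JUND. The last 2 settings were chosen after seeing the data. The cause was not tested. Leaving out 1 library gave these ranges where a sign changed. For H2087 LCC against parental, MLM they were -0.37 to 0.17 for FOSB, -0.19 to 0.13 for FOS, -0.17 to 0.043 for JUN. For H2087 LCC against parental, MRM they were -0.12 to 0.28 for FOSB, -0.24 to 0.070 for FOS. For H2087 MLM against MRM, LCC they were -0.044 to 0.33 for EGR1, -0.23 to 0.11 for FOS, -0.34 to 0.065 for FOSB. For H2087 MLM against MRM, parental they were -0.23 to 0.32 for FOSB. For H2087 the LCC difference in MLM less that in MRM they were -0.10 to 0.24 for FOS, -0.42 to 0.13 for FOSB, -0.049 to 0.13 for MYC. For HCC1954 LCC against parental, MLM they were -0.030 to 0.78 for EGR1, -0.23 to 0.22 for JUNB. For HCC1954 LCC against parental, MRM they were -0.10 to 0.42 for FOS, -0.17 to 0.12 for JUN, -0.14 to 0.31 for IER3, -0.17 to 0.40 for EGR1. For HCC1954 MLM against MRM, LCC they were -0.071 to 0.50 for EGR1, -0.087 to 0.32 for JUNB. For HCC1954 MLM against MRM, parental they were -0.08 to 0.43 for FOS, -0.069 to 0.77 for FOSL1, -0.45 to 0.36 for EGR1. For HCC1954 the LCC difference in MLM less that in MRM they were -0.15 to 0.11 for FOSL2, -0.16 to 0.75 for EGR1, -0.16 to 1.12 for FOSL1. For HCC1954 LCC2 against LCC1, both media they were -0.21 to 0.31 for EGR1. The fewest reads were those of FOSB (8 to 84) and FOS (49 to 561) in H2087, where the coefficient of variation among LCC libraries was 44.9% in the deeper MLM and 33.7% in MRM for FOS, and 28.2% and 49.2% for FOSB.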
